A study of Homo sapiens with 4 samples.

Results

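The proteasome genes of the table were those whose symbol is PSM followed by a letter from A to G and a number, which gave 47 of 26830 gene rows. They comprise 18 genes of the core particle (PSMA and PSMB), 20 of the regulatory particle (PSMC and PSMD) and 9 for activators, an inhibitor and assembly chaperones (PSME, PSMF and PSMG). PSMB9, a subunit of the immunoproteasome, was not analysed here. The data are RNA immunoprecipitation sequencing (RIP-seq) of U2OS, a human osteosarcoma cell line, infected with a lentivirus that carries QKI7 with a triple Flag tag and a GFP marker. All libraries came from these QKI7-expressing cells, without any other treatment: 2 libraries of input RNA, for which no antibody is named, and 2 of RNA pulled down by a Flag antibody after ultraviolet cross-linking, lysis and sonication (Flag-RIP). The cells were kept on GFP expression, so the tagged protein comes from a transgene at a forced level, and cells without it or a mock precipitation were not analysed here. Replicates are numbered 1 and 2 in each group, with no word on separate cultures; the p-values thus reflect the spread among these libraries alone, and that spread may be technical.

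The proteasome is the main protease of the cytosol and nucleus and destroys proteins marked with ubiquitin. Its core is a barrel of stacked rings, the outer ones made of alpha and the inner ones of beta subunits, and 3 of the beta subunits carry the active sites. The regulatory particle caps the barrel: a base with a ring of ATPases unfolds the substrate and a lid removes its ubiquitin. QKI7 is a splice form of QKI, an RNA-binding protein of the STAR family that recognises short ACUAA-containing elements in RNA.

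Values were TPM, a length-normalised share of each library, so levels can be set between genes, but they keep no read depth and no counting interval can be given. The 10415 genes whose TPM averaged 1 or more were tested. The median tested gene had 1.29 and 2.01 TPM in the inputs and 5.72 and 5.37 in Flag-RIP, so a typical gene took a larger share of the RIP libraries. Changes are therefore given at a common median: each library's TPM was multiplied so that the median tested gene had the same level in all 4, log2(TPM + 1) was taken, and Flag-RIP was compared with input by limma, with Benjamini-Hochberg adjustment over all tested genes and a threshold of 0.05. On this scale the change understates that of low genes. Of 8 bone-lineage markers, COL1A1 and SPARC exceeded 1 TPM in both inputs and IBSP was listed at 0, while 7 markers of blood, epithelium and endothelium summed to 0.35 to 0.42 TPM in the inputs and 1.61 to 1.74 in Flag-RIP.

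Of the 47 proteasome genes, 44 passed the filter. PSMA8 (testis form of an alpha subunit), PSMB11 (thymus form of a beta subunit) and PSMG1, an assembly chaperone, did not, with values between 0 and 0.72 TPM. PSMD5, PSMD10, PSMD12 and PSMG4 had an input mean below 1 TPM and passed through their RIP values. Levels differed widely among the tested genes. PSMA7 was the highest in all 4 libraries, with 30.9 and 38.7 TPM in the inputs and 56.9 and 59.6 in Flag-RIP. The lowest tested gene was PSMD12 (0.51) in input replicate 1, PSMD10 (0.64) in input replicate 2 and PSMG4 in both RIP libraries (1.06 and 1.71). The highest tested member exceeded the lowest 60.6-fold and 60.4-fold in the inputs, and 53.6-fold and 34.8-fold in RIP replicates 1 and 2.

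Most proteasome transcripts were recovered with Flag-QKI7 less than the median transcript. At a common median, 36 of the 44 tested genes were lower in Flag-RIP, 2 were higher and 6 did not pass (limma, adjusted p under the threshold). Over all tested genes, 25.5% were lower and 20.2% higher. Both RIP libraries lay below both inputs for 37 of the 44 and above them for 3, against 41.5% and 38.2% of all tested genes. A decrease of at least 2-fold with a passing p was found for 16 of the 44, against 5.75% of all tested genes, and an increase of that size for 0, against 3.4%. The median change of the 44 was -0.82, with a range from -2.01 to 0.83, and that of all tested genes was -0.02.

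These decreases are relative to other transcripts, since in TPM as deposited most members had a larger share in Flag-RIP. As deposited, 27 of the 44 were higher and 0 lower (limma, adjusted p under the threshold), where 92.3% of all tested genes were higher and 0.317% lower. Both RIP libraries lay above both inputs as deposited for 39 of the 44 and below them for 0, against 96.7% and 0.845% of all tested genes. At an unadjusted limma p under the threshold, again 0 members were lower as deposited. With the 20 most abundant rows left out and the rest rescaled, these counts of members were 4 higher and 18 lower, against 36% and 7.02% of the 10402 genes then tested. The ratio of mean TPM in Flag-RIP over input had a median of 1.78 over the members, against 3.31 over all tested genes, and 37 of the 44 members lay below that value. PSMD8 and PSMB6 had ratios below 1, at 0.79 and 0.95.

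**Figure D1:**
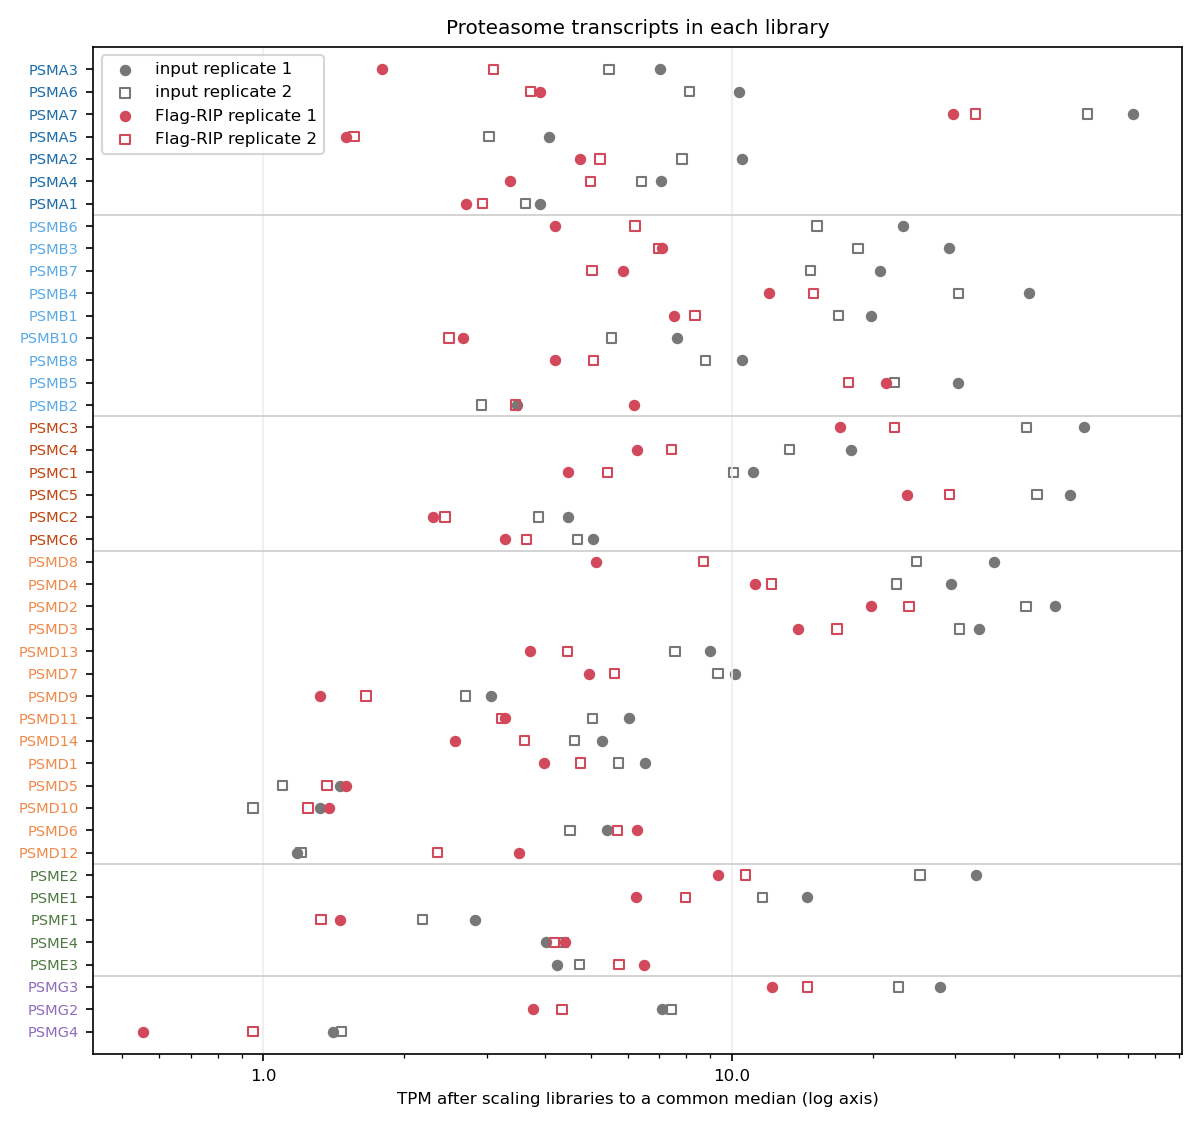
TPM of the 44 tested proteasome genes in each library after scaling to a common median (log axis), with inputs in grey and Flag-RIP in red, replicate 1 as filled circles and replicate 2 as open squares, and genes grouped and coloured by class from PSMA at the top to PSMG at the bottom. The red points lie left of the grey ones for 37 genes and right of them for 3 (PSMD6, PSMD12 and PSME3). Over all tested genes, 41.5% had both RIP libraries below both inputs and 38.2% above. In TPM as deposited 27 of the 44 were higher in Flag-RIP, against 92.3% of all tested genes.

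The summed transcripts show the same on a scale that leaves out the noncoding RNAs. All proteasome genes together made up 0.646% and 0.636% of the protein-coding TPM in the inputs and 0.433% and 0.498% in Flag-RIP. The RIP libraries thus lay below both inputs, with means of 0.641% ± 0.007 and 0.466% ± 0.045 (SD, n = 2). Core genes went from 0.254% ± 0.012 to 0.176% ± 0.009, regulatory genes from 0.302% ± 0.003 to 0.221% ± 0.030, and activator and assembly genes from 0.085% ± 0.003 to 0.069% ± 0.007 (SD, n = 2). In each of these classes the groups did not overlap. The summed TPM of core genes over that of regulatory genes came to 0.88 and 0.81 for the inputs, against 0.85 and 0.75 for Flag-RIP, so the balance of the classes overlapped between the groups.

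**Figure D2:**
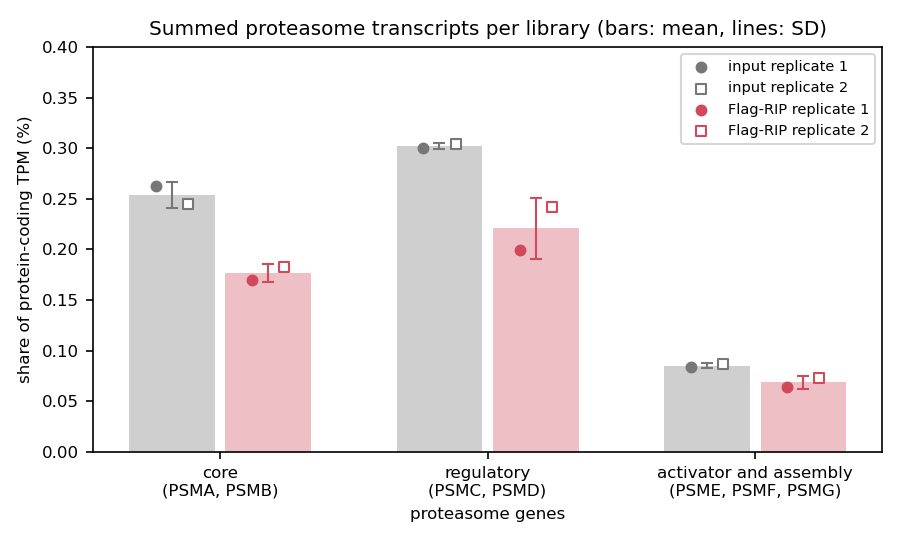
Summed TPM of core, regulatory, and activator and assembly genes as a percentage of all protein-coding TPM in each library. Bars are means of 2 libraries, lines are SDs and points are libraries; in all 3 classes both Flag-RIP libraries lie below both inputs, with core genes at 0.254% in input and 0.176% in Flag-RIP.

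Genes of the core particle had the lowest median of the 3 classes. Of 16 tested core genes, 14 were lower in Flag-RIP and 0 higher, with a median change of -1.04. At an unadjusted limma p under the threshold, also 0 core genes were higher. The regulatory particle had 16 lower and 1 higher of 20 and a median of -0.71. Activators and assembly genes had 6 lower and 1 higher of 8 and a median of -0.63. Over all tested genes, 25.5% were lower and 20.2% higher. These medians are descriptions, and the difference between the classes was not tested. Among genes with a mean of at least 5 TPM, core and regulatory medians lay closer together, at -0.85 and -0.80. The activator and assembly median was then -0.57. Their ranges overlapped, at -1.69 to 0.43 for core, -2.01 to 0.83 for regulatory and -1.44 to 0.38 for activator and assembly genes.

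The alpha ring was low as a whole. All 7 tested PSMA genes were lower in Flag-RIP, against 25.5% of all tested genes, and their median change was -0.84. PSMA3 had 3.03 and 3.68 TPM in the inputs and 3.44 and 5.57 in Flag-RIP, a change at a common median of -1.09 (SE 0.21, limma adjusted p = 0.0145). Its values overlapped as deposited, and at a common median both RIP libraries were lower. PSMA1, the alpha gene with the smallest decrease, had 1.68 and 2.44 TPM in the inputs and 5.19 and 5.28 in Flag-RIP, a change of -0.32 (SE 0.09, limma adjusted p = 0.0359). Its RIP share was higher than both inputs as deposited but rose less than the median gene. Its call was lost without any 1 of the 4 libraries and with a replicate block (limma adjusted p of 0.0634 to 0.214). The others were PSMA6 at -1.08, PSMA7 at -1.01, PSMA5 at -0.84, PSMA2 at -0.75 and PSMA4 at -0.60. The call of PSMA4 was lost in 8 of 15 alternative fits and that of PSMA2 in 3 of 15.

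Among the beta genes, transcripts of the active-site subunits did not move as a block. PSMB6, the caspase-like subunit, had 10.0 and 10.2 TPM in the inputs and 8.02 and 11.2 in Flag-RIP, a change of -1.69 (SE 0.25, limma adjusted p = 0.00933). Its deposited values overlapped while those of nearly all other genes rose. PSMB7, the trypsin-like subunit, was lower by a similar amount, at -1.52 (limma adjusted p = 0.0090). PSMB5, the chymotrypsin-like subunit and the main target of proteasome inhibitors, had -0.40 and did not pass (SE 0.20, limma adjusted p = 0.15), although both RIP libraries lay below both inputs at a common median. The subunits that replace the active ones in the immunoproteasome were both lower. PSMB8 had 4.55 and 5.91 TPM in the inputs and 8.03 and 9.11 in Flag-RIP, a change of -0.92 (SE 0.14, limma adjusted p = 0.00933). PSMB10 had 3.30 and 3.73 TPM in the inputs and 5.12 and 4.48 in Flag-RIP, a change of -1.07 (SE 0.15, limma adjusted p = 0.00912).

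Of the beta subunits without an active site, PSMB3 (-1.59), PSMB4 (-1.37) and PSMB1 (-1.11) were lower, and PSMB2 stood apart. PSMB2 had 1.5 and 1.97 TPM in the inputs and 11.9 and 6.22 in Flag-RIP, a 5.21-fold higher mean. Its change at a common median was 0.43 and did not pass (SE 0.24, limma adjusted p = 0.181). The RIP replicates differed 1.79-fold at a common median, the widest gap of any tested member, and RIP replicate 2 overlapped the inputs. With RIP replicate 1 alone the change was 0.75 and with RIP replicate 2 alone 0.08.

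The ATPases that form the ring of the base were uniformly low. All 6 PSMC genes were lower in Flag-RIP, against 25.5% of all tested genes, and their median change was -0.91. For each, both RIP libraries lay below both inputs at a common median, against 41.5% of all tested genes. PSMC3 had 24.4 and 28.6 TPM in the inputs and 32.5 and 39.9 in Flag-RIP, a change of -1.29 (SE 0.21, limma adjusted p = 0.0107). PSMC6 had 2.18 and 3.15 TPM in the inputs and 6.29 and 6.56 in Flag-RIP, a change of -0.39 (SE 0.10, limma adjusted p = 0.0244). Between them were PSMC4 at -1.07, PSMC1 at -0.96, PSMC5 at -0.86 and PSMC2 at -0.61. The call of PSMC6 was lost in 6 of 14 alternative fits and that of PSMC5 in 4 of 15.

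The remaining regulatory genes held both extremes of the family, and both belong to the lid. Of 14 PSMD genes, 10 were lower, 1 higher and 3 did not pass, against 25.5% lower and 20.2% higher of all tested genes. PSMD8 had 15.6 and 16.7 TPM in the inputs and 9.84 and 15.6 in Flag-RIP, the lowest change of any member at -2.01 (SE 0.28, limma adjusted p = 0.00909). Only its second RIP library reached the input range as deposited. PSMD12 had 0.51 and 0.81 TPM in the inputs and 6.73 and 4.23 in Flag-RIP, the highest change of any member at 0.83 (SE 0.15, limma adjusted p = 0.0132). Its mean TPM was 8.30-fold higher in Flag-RIP, both RIP libraries were far above the inputs, and the inputs were under 1 TPM. It passed the filter through the RIP libraries, where it is high, so its call is given as a description. The call was lost with spike-in scaling (0.22, limma adjusted p = 0.392).

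The other lid genes lay between these. PSMD3 (-1.03), PSMD13 (-0.87), PSMD7 (-0.78), PSMD11 (-0.62) and PSMD14 (-0.55), the deubiquitinase of the lid, were lower. The call of PSMD14 was lost in 4 of 14 alternative fits. PSMD6 had 0.23 and did not pass (SE 0.12, limma adjusted p = 0.159), though both RIP libraries lay above both inputs at a common median. In the base, PSMD4, a ubiquitin receptor, was lower at -1.07, as were the large scaffold subunits PSMD2 at -1.03 and PSMD1 at -0.41, although the call of PSMD1 was lost without any 1 of the 4 libraries. Chaperones that assemble the base are also named PSMD. PSMD9 was lower at -0.64, whereas PSMD10, known as gankyrin, had 0.12 (limma adjusted p = 0.431) and PSMD5 0.10 (limma adjusted p = 0.493), neither of which passed.

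Activator genes went different ways. PSME1 and PSME2 encode the interferon-inducible activator that opens the core without ATP, and both were lower. PSME2 had 14.3 and 17.0 TPM in the inputs and 17.9 and 19.2 in Flag-RIP, a change of -1.44 (SE 0.17, limma adjusted p = 0.0090). PSME1 was lower at -0.79. PSME3 and PSME4 encode nuclear activators. PSME3 had 1.83 and 3.18 TPM in the inputs and 12.5 and 10.3 in Flag-RIP, a change of 0.38 (SE 0.11, limma adjusted p = 0.0380). Its RIP libraries lay above the inputs on both scales, but the call was lost without any 1 of the 4 libraries (0.29 to 0.45, limma adjusted p of 0.0557 to 0.204) and had the opposite sign when scaled to the spike-ins (-0.42). PSME4 had 0.03 and overlapped between the groups (limma adjusted p = 0.809). PSMF1, which encodes an inhibitor of the core, was lower at -0.54, a call lost in 3 of 14 alternative fits.

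Chaperones of core assembly were low where they could be tested. PSMG3 had 12.02 and 15.2 TPM in the inputs and 23.4 and 26.1 in Flag-RIP, a change of -0.87 (SE 0.16, limma adjusted p = 0.0133). Its partner PSMG4 had 0.61 and 0.99 TPM in the inputs and 1.06 and 1.71 in Flag-RIP, a change of -0.49 (SE 0.13, limma adjusted p = 0.0341). In both, the RIP libraries lay above the inputs as deposited and below them at a common median. PSMG2 was lower at -0.71. The call of PSMG4 was lost in 4 of 14 alternative fits.

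**Figure D3:**
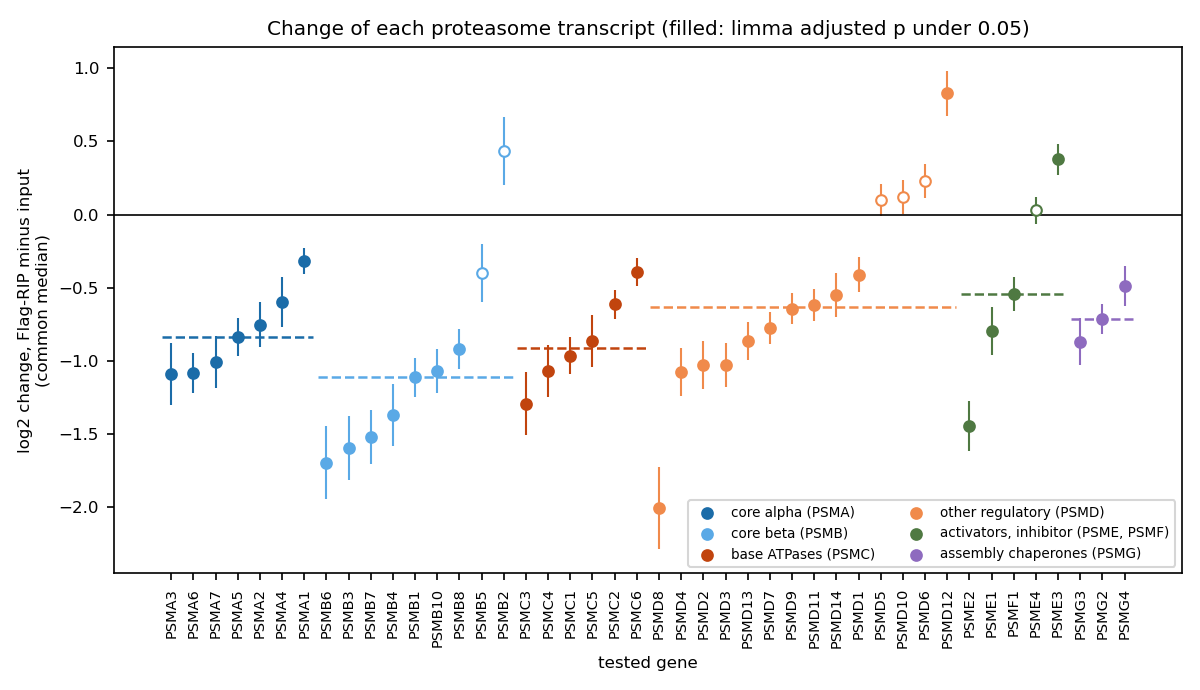
Log2 change at a common median, Flag-RIP minus input, of each tested gene with its standard error, ordered by class and then by change; filled points passed the limma test, open points did not, and dashed lines are class medians. All 7 PSMA and all 6 PSMC genes lie below 0, and PSMD8 at -2.01 and PSMD12 at 0.83 are the extremes. As deposited, 27 of these genes were higher in Flag-RIP, against 92.3% of all tested genes.

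Low recovery went with high level and short genes, among proteasome genes and in the table at large. Of 15 members with a mean of at least 10 TPM, 14 were lower and 0 higher, with a median of -1.07. Of 29 below 10 TPM, 22 were lower and 2 higher, with a median of -0.61. Among all tested protein-coding genes, 47.8% were lower at 10 TPM or more and 22.3% below it, with medians of -0.39 and 0.00. Across the 44 members the change had a Spearman correlation of -0.58 with mean TPM and 0.42 with the genomic span of the gene, against -0.27 and 0.33 across 9474 tested protein-coding genes. These correlations describe genes of the same 4 libraries, which are not independent, and the mean TPM shares its values with the change. The pseudocount also shrinks changes of low genes, which bears on the correlation with level and the split by level. Level and span went together, with a median span of 9254 bp for members of at least 10 TPM and 26870 bp for those below. Members that span under 20 kb had a median of -0.96 (n = 27) and longer ones of -0.55 (n = 17), against -0.26 and 0.05 for protein-coding genes. The part of level or length in the members' decrease was not tested.

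**Figure D4:**
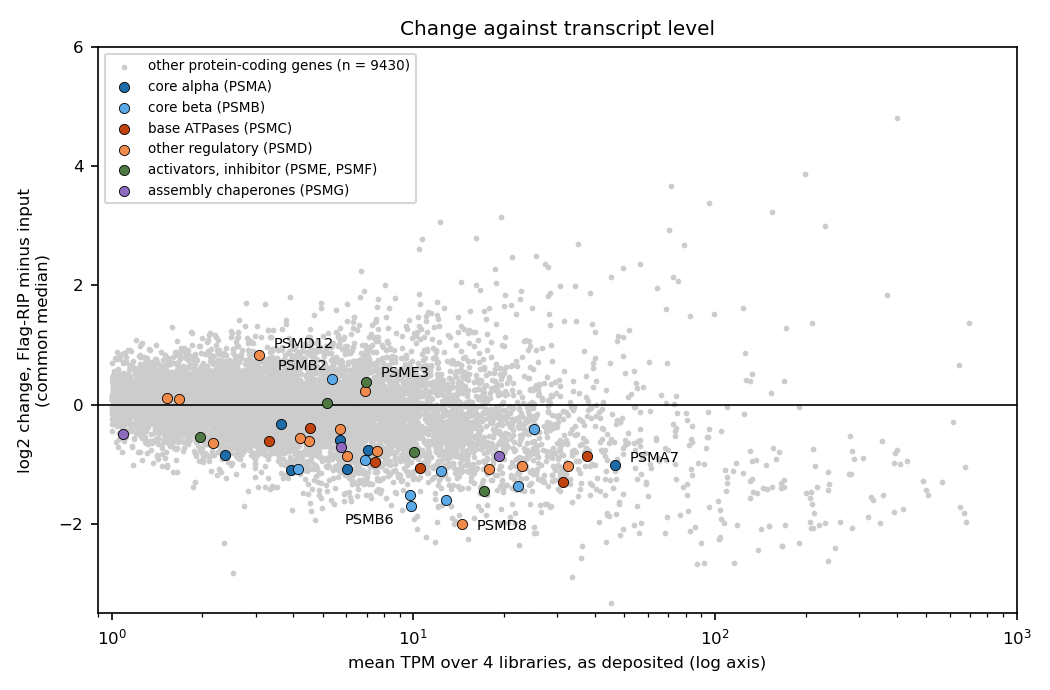
Log2 change at a common median against mean TPM as deposited (log axis) for the proteasome genes, coloured by class, and for 9430 other tested protein-coding genes in grey, of which 1 lies outside the axes. Members of at least 10 TPM lie below 0, and the positive members, among them PSMD12, PSMB2 and PSME3, have mean levels below 10 TPM.

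Both RIP libraries showed the decrease, and replicate 1 showed it more. Against the mean of the inputs, the median change of the 44 members was -0.90 in RIP replicate 1 and -0.71 in replicate 2, and 37 and 38 members lay below 0. The distance from the inputs, up or down, was larger in replicate 1 for 37 of the 44, and for 6523 of the 10415 tested genes. That count is not of decreases alone. It includes members above the inputs, such as PSMD12 and PSMB2, which were higher in RIP replicate 1 than in replicate 2. Leaving out RIP replicate 1 kept all 36 lower members below 0 but left 3 calls, PSMB1, PSMB7 and PSMC1, with 2.86% of all tested genes then called lower. The 33 lost calls had limma adjusted p of 0.0508 to 0.146. The count was 24 without input replicate 1, 31 without input replicate 2 and 32 without RIP replicate 2, against 11.5%, 19.9% and 18% of all tested genes. Each such fit leaves a group with 1 library, which is assumed to vary like the other group.

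Genes that work with the proteasome but carry other names were lower more often than higher. Of 21 such genes 20 were tested, of which 11 were lower and 2 higher at a common median, with a median of -0.36, against 25.5% lower and 20.2% higher of all tested genes. ADRM1, another ubiquitin receptor of the base, was lowest. It had 14.9 and 18.4 TPM in the inputs and 24.9 and 29.5 in Flag-RIP, a change of -1.03 (SE 0.18, limma adjusted p = 0.0123). POMP, which helps the beta ring mature, was lower at -0.79, and NFE2L1, the transcription factor that raises proteasome genes when activity falls short, at -0.42. USP14, a deubiquitinase that docks on the base, was highest, with 0.83 and 1.24 TPM in the inputs and 5.98 and 4.94 in Flag-RIP, a change of 0.45 (SE 0.09, limma adjusted p = 0.0154). AKIRIN2, which brings proteasomes into the nucleus, was the other higher gene at 0.39, but its input mean was 0.70 TPM, so it passed the filter through its RIP values.

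In GRCh38, PSMD8 lies on chromosome 19 from 38374571 to 38383824 and PSMD12 on chromosome 17 from 67337916 to 67366577. PSMB6 lies on chromosome 17 from 4796164 to 4798495, PSMB2 on chromosome 1 from 35599541 to 35641526 and PSME3 on chromosome 17 from 42833397 to 42843760. The table holds 1 value per gene, so exons, introns and untranslated regions cannot be told apart in it. Antisense genes are listed for 5 members, and whether counting used strand is not stated. Reads of a gene may thus be mixed with those of an antisense partner that overlaps it. In RefSeq, PSMD5-AS1 (there named CUTALP) and PSMG3-AS1 lie beside their partners without overlap. PSMA3-AS1 had 0.34 and 0.72 TPM in the inputs and 5.75 and 7.04 in Flag-RIP, a change of 1.21 (SE 0.14, limma adjusted p = 0.00866), while PSMA3 itself was lower. PSMD5-AS1 was higher at 0.51 (limma adjusted p = 0.0165), and PSMD6-AS2, PSMB8-AS1 and PSMG3-AS1 had at most 1.37 TPM in any library. PSMA3-AS1 and PSMD5-AS1 had input means of 0.53 and 0.38 TPM and passed the filter through their RIP values.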

How the data were processed

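The authors deposited TPM values in 1 table, a column for each library. STAR and RSEM 1.2.31 were run on GRCh38, per the submitters' processing notes; the annotation, any filter and the strand setting are not stated there. The 92 spike-in rows were left out of tests. Each library's TPM was scaled to a common median over genes averaging at least 1 TPM before a pseudocount of 1 was added. The reason was that subtracting medians after the log takes the same amount from every gene, although the pseudocount shrinks changes of low genes more. The test was limma 3.58.1 under R 4.3.3 (lmFit, eBayes with trend, two-sided, 2 residual degrees of freedom), checked on simulated data. Alternatives were pseudocount, filter, scaling, variance fit, replicate block and leaving out each library. All 47 symbols matched RefSeq (GRCh38.p14), the source of coordinates and spans. Members, roles and lists were chosen with earlier results of these data known. Every member could be named; all library values are given for the lowest and highest member of each of the 6 symbol classes, the immunoproteasome subunits, and ADRM1, USP14, PSMA7 and PSMA3-AS1, the last 2 chosen after their values were seen.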

Additional observations from a re-analysis of the deposited data

How the results depend on the processing

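The median changes of the 3 classes stayed below 0 under all alternatives run. With a pseudocount of 5 they were -0.61 for core, -0.44 for regulatory and -0.33 for activator and assembly genes. Scaled to the spike-ins they were -1.83, -1.49 and -1.33, where the median of all tested genes was -0.68. The activator and assembly median was also -0.85 with a pseudocount of 0.1, -0.78 with medians over all rows above 0 and -0.52 with medians subtracted after the log. The count of lower members was 23 of 30 tested at a mean TPM of 5 or more, against 30.3% of all genes then tested. Higher members numbered 1 with no filter and 1 with medians over all rows above 0, against 9.12% and 13.5% of tested genes. They numbered 0 scaled to the spike-ins and 3 with medians subtracted after the log, against 3.12% and 16.4%. The deposited count of higher members was 16 at a mean TPM of 5 or more, 4 without the 20 most abundant rows (18 lower) and 5 to 35 with a library left out. The share of all tested genes called higher as deposited also changed with the library left out, so that last range is not of the members alone. At a mean TPM of 5 or more, 30 members were tested, and 87% of all genes then tested were higher as deposited. Without the 20 most abundant rows, 36% of all genes then tested were higher and 7.02% lower. Scaled to the spike-ins, PSME3 (-0.42) and PSMB2 (-0.31) turned below 0. With a replicate block 32 members were lower, 1 higher, and 15 higher as deposited, against 20.6%, 17.7% and 87.5% of all tested genes. Same-numbered libraries deviated together with r = -0.0975 over tested genes, and with 2 pairs the numbers were not taken as a pairing. TPM keeps no depth, so the counting error of low values is unknown.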
